A study of Mus musculus with 2 samples.

Results

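Genes that carry glucose and fructose into liver metabolism and down to lactate were described in mouse liver after oral titanium dioxide nanoparticles. The set held 8 genes, chosen by name: the glucose transporter Slc2a2, the regulatory gene Gckr, the glycolysis genes Pfkl, Pfkfb1, Pklr and Gapdh, the fructose kinase gene Khk and the lactate dehydrogenase gene Ldha. All 8 were found among 37146 genes of the tables, and all 8 were among the 10533 genes compared, which had a mean of at least 1 FPKM, the unit of the tables, in which fragments are counted relative to length and to all mapped fragments. The NP group was CD-1 mice, an outbred stock, dosed by mouth with titanium dioxide nanoparticles at 50 mg per kg body weight each day, and the Control group was CD-1 mice given phosphate-buffered saline in the same volume. Each group had 1 RNA-seq library of whole liver. Age, sex, the duration of dosing and how many mice each library stands for are not in the labels.

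With 1 library per group there was no test, and every difference below is between these libraries and not between treatments. Brackets hold the 95% interval deposited with each value, which reflects how well that library fixed the estimate and says nothing of how animals differ. The NP library was the more deeply covered, with 2.93 units of read coverage per FPKM against 2.29 in Control. Liver identity was clear, since all 8 hepatocyte markers were at 202 FPKM or more in NP and 200.1 FPKM or more in Control. Summed hepatocyte markers were at 49272 FPKM in NP and 37634 FPKM in Control, and 7 of 8 were higher in NP. Endothelial markers summed to 50.9 FPKM in NP and 70.2 in Control, with 5 of 5 lower in NP. Kupffer cell markers summed to 15.9 and 31.2 FPKM with 5 of 5 lower in NP, and stellate cell markers to 14.5 and 18.1 FPKM with 4 of 4 lower. Whether these shifts had a part in the values of the 8 genes was not tested. In whole tissue, fewer cells of a type and less RNA per cell cannot be told apart.

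Hepatocytes take up glucose through a high-capacity carrier, trap it by phosphorylation and either store it or send it through glycolysis to pyruvate and lactate. Fructose enters below the main control point of glycolysis, after it has been phosphorylated by ketohexokinase. In liver the enzymes at the control points include liver forms, whose activity is set by metabolites and hormones as well as by transcription.

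Both libraries had all 8 genes at similar levels, and on the log2(FPKM + 1) scale 0 of 8 were 1.5-fold higher and 0 were 1.5-fold lower in NP. Among all genes compared, 3.6% were 1.5-fold higher and 5.33% were 1.5-fold lower. At a ratio of at least 5 to 4 in either direction, Ldha was higher and Pfkfb1 lower, which is 1 of 8 in each direction, against 10.2% of all genes higher and 14% lower. The same genes were the only members with separate intervals. NP was wholly above Control in 1 of 8 and wholly below in 1 of 8, against 7.73% and 9.58% of all genes. Intervals are narrower at higher levels, and among the 4746 genes at least as abundant as the lowest member these shares were 11.1% and 12.1%. The median log2 ratio of the 8 genes was -0.10, with 3 above 0 and 5 below, and the median of all genes compared was -0.03. These shares are near the background.

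**Figure D1:**
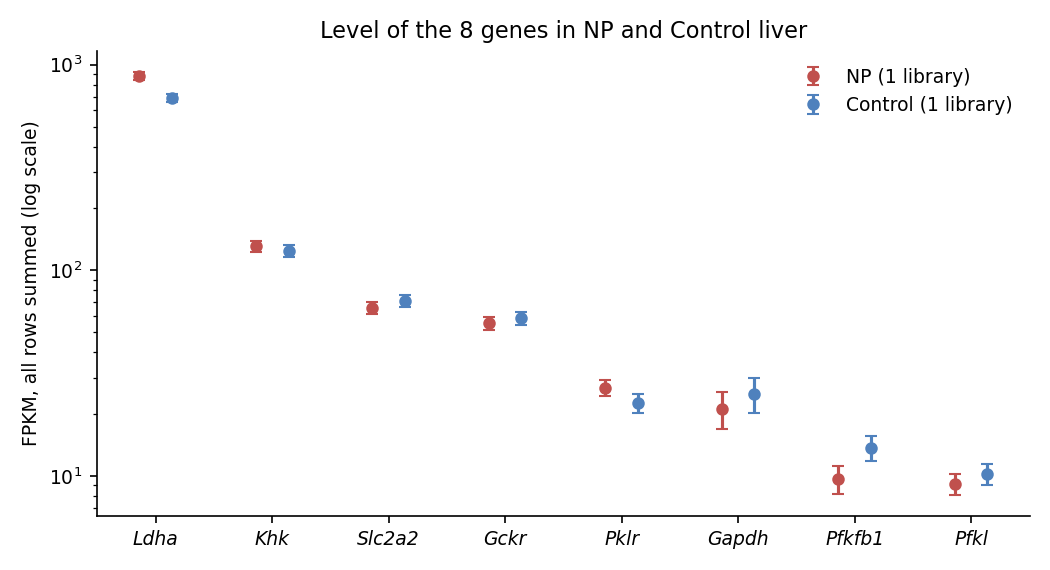
FPKM of each of the 8 genes on a log axis, with NP left of Control for each gene; points are single libraries and bars the 95% interval within the library. Intervals are separate only for Ldha (883 in NP, 689 in Control) and Pfkfb1 (9.69 in NP, 13.7 in Control).

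Levels, which are scaled to length, spanned a wide range. In NP the order from the top was Ldha, Khk, Slc2a2, Gckr, Pklr, Gapdh, Pfkfb1 and Pfkl. Control had the same order except that Gapdh stood above Pklr. The place of Gapdh is uncertain. Its locus held only 5.0% of the FPKM of gene and pseudogene copies in NP and 5.84% in Control, as described below. Within each library the intervals of Pklr and Gapdh overlapped, and Pfkfb1 and Pfkl overlapped in NP but not in Control, where Pfkfb1 was the higher. The mean level of Ldha was above that of 99.1% of genes compared, and that of Pfkl above 54.9%.

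Slc2a2 encodes GLUT2, the carrier through which glucose enters and leaves hepatocytes. It was at 65.6 FPKM (61.4 to 69.8) in NP and 71.2 FPKM (66.6 to 75.8) in Control, a ratio of 0.921. The intervals overlapped. All of its FPKM lay in 1 protein-coding row of 2566 nt, with a read coverage of 190 in NP and 164 in Control, while its other 3 rows were at 0 in both libraries. The gene lies on chromosome 3 from 28596825 to 28627278 in build mm9, as all gene coordinates here. It overlaps 1700112D23Rik, a gene at 0.966 FPKM in NP and 1.02 FPKM in Control.

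Slc2a2 held most of the FPKM of the class of carriers to which it belongs. Over Slc2a1, Slc2a2, Slc2a3 and Slc2a4, its share was 91.0% in NP and 92.0% in Control. Slc2a1, the widely expressed GLUT1 gene, was at 5.93 FPKM (4.95 to 6.91) in NP and 6.11 FPKM (5.06 to 7.17) in Control. Slc2a4, the insulin-responsive carrier of muscle and fat, was at 0.410 FPKM in NP and listed at 0 in Control.

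Gckr encodes the regulatory protein that holds the glucose-phosphorylating enzyme of hepatocytes in the nucleus when glucose is low. Its level was 55.4 FPKM (51.6 to 59.2) in NP and 58.7 FPKM (54.5 to 62.8) in Control, with overlapping intervals and a ratio of 0.944. The gene lies on chromosome 5 from 31599954 to 31629673 and no other gene of the tables overlaps it. Its transcript row of 2012 nt was at 50.2 FPKM in NP and 53.2 FPKM in Control. The row that spans the whole gene, 29720 nt with introns included, was at 5.19 FPKM in NP and 5.52 FPKM in Control. Since that row is long, it held 60.4% of the FPKM times length of Gckr in NP and 60.5% in Control, a measure of how many fragments were assigned to it. Spliced and span rows thus kept the same proportion in both libraries.

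Phosphofructokinase commits hexose to glycolysis, and Pfkl encodes its liver subunit. Pfkl was at 9.18 FPKM (8.13 to 10.2) in NP and 10.3 FPKM (9.08 to 11.4) in Control, with overlapping intervals. It was the least abundant of the 8 genes in both libraries, and all of its FPKM lay in the protein-coding row of 3730 nt. Pfkl lies on chromosome 10 from 77449692 to 77472828. The muscle subunit gene Pfkm was at 6.19 FPKM (5.24 to 7.14) in NP and 6.57 FPKM (5.53 to 7.62) in Control, and the platelet subunit gene Pfkp was listed at 0 in both. Pfkl made up 59.7% of the FPKM of the 3 subunit genes in NP and 60.9% in Control.

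Pfkfb1 encodes the liver form of the enzyme that both makes and removes the bisphosphate of fructose by which phosphofructokinase is activated. Pfkfb1 was the member with the lowest ratio, at 9.69 FPKM (8.20 to 11.2) in NP and 13.7 FPKM (11.8 to 15.6) in Control, 1.41-fold lower in NP. Its log2 ratio of -0.46 lay above that of 7.87% of all genes compared, and 14.9% of genes lay at least as far from the overall median in either direction. The intervals were separate, with NP below Control.

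The lower value of Pfkfb1 lay in its transcript row and not in its span row. The gene lies on chromosome X from 147022772 to 147078421, with 7 transcript rows. Of these, only the protein-coding row of 1872 nt was above 0, at 9.37 FPKM (7.88 to 10.9) in NP and 13.4 FPKM (11.5 to 15.3) in Control. The span row was at 0.327 FPKM (0.278 to 0.376) in NP and 0.292 FPKM (0.243 to 0.341) in Control, with overlapping intervals and a ratio of 1.12. It held 50.9% of the FPKM times length of the gene in NP and 39.2% in Control. Span rows can also take intronic reads. The overlapping gene Apex2 was listed at 0 in both libraries.

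Other members of the enzyme family of Pfkfb1 were also expressed. Pfkfb2 was at 9.40 FPKM (8.63 to 10.2) in NP and 9.998 FPKM (9.15 to 10.8) in Control, close to Pfkfb1 in NP and below it in Control. Pfkfb3 was at 1.55 FPKM (1.20 to 1.91) in NP and 2.61 FPKM (2.12 to 3.11) in Control, with separate intervals. Pfkfb1 made up 46.4% of the FPKM of the 4 Pfkfb genes in NP and 51.8% in Control.

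Khk encodes ketohexokinase, the first enzyme of fructose breakdown. Its level was 131 FPKM (123 to 139) in NP and 124 FPKM (116 to 132) in Control, with overlapping intervals and a ratio of 1.05. Khk lies on chromosome 5 from 31223929 to 31233619 and has 4 transcript rows. Only 1 of these, of 1456 nt, was above 0, at 126 FPKM in NP and 119 FPKM in Control. The span row was at 4.65 FPKM in NP and 5.26 FPKM in Control, and held 19.7% and 22.8% of the FPKM times length. Khk is known to make A and C forms by the use of alternative exons, of which C is the liver form. Which form the row above 0 encodes was not determined here.

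Pklr encodes the liver and red cell forms of pyruvate kinase, which makes pyruvate in the last step of glycolysis. It was at 26.8 FPKM (24.4 to 29.2) in NP and 22.6 FPKM (20.3 to 24.9) in Control, a ratio of 1.18. The intervals overlapped at their ends, and the log2 ratio of 0.23 lay above that of 84.1% of genes compared. Pklr lies on chromosome 3 from 88940064 to 88950706 and overlaps Hcn3, which was listed at 0 in both libraries. Pkm2, the pyruvate kinase gene of most other tissues, was at 2.05 FPKM (1.42 to 2.67) in NP and 3.13 FPKM (2.14 to 4.11) in Control. Pklr thus made up 92.9% of the FPKM of both genes in NP and 87.9% in Control.

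The FPKM of Pklr was split between transcript rows that begin 430 nt apart. As background, the upstream start serves erythroid cells and the downstream start serves hepatocytes. The upstream row was at 15.5 FPKM (13.7 to 17.3) in NP and 12.8 FPKM (11.1 to 14.6) in Control, and the downstream row at 11.3 FPKM (9.79 to 12.9) in NP and 9.81 FPKM (8.30 to 11.3) in Control. Both rows were higher in NP with overlapping intervals. Shares hardly differed, with the upstream row at 57.7% of the gene in NP and 56.7% in Control. These rows also end at different bases, 88950516 for the upstream and 88950706 for the downstream row. Their shares therefore do not measure the use of the starts alone. Erythroid markers summed to 769 FPKM in NP and 887 FPKM in Control over 7 genes, of which 5 were lower and 1 higher in NP. The 1 higher was Alas2, at 45.6 FPKM in NP and 38.3 FPKM in Control. Of the 5 lower, the red cell membrane gene Slc4a1 was near the floor, listed at 0 in NP and at 0.0472 FPKM in Control. The part of red cell RNA in the upstream row was not tested.

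The downstream start of Pklr is shown because it carries the element through which glucose is known to act on this gene, a pair of E-box-like motifs bound by ChREBP, the product of Mlxipl. The 250 bases before that start, from RefSeq in build GRCm38.p6 at chr3:89136373-89136622 on the plus strand, were searched on both strands for the letters CACGNGNNNNNCNNGTG, where N is any base. Capitals mark the match, which begins 170 bases before the start.
Pklr, downstream start: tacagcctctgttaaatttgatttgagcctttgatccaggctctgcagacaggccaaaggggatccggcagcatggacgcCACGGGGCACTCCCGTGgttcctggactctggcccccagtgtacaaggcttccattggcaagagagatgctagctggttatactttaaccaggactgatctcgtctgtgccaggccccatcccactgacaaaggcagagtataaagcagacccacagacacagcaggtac
All 8 genes were found in the RefSeq table, with 13 starts, and this was the only start of the 13 with a match. Among all 32851 starts, 52 had one, which is 0.158%. The letters were modelled on the element known from the Pklr promoter, so a match in Pklr was fixed in advance. A match is a description of these letters and not a measured binding site. Mlxipl itself was at 73.5 FPKM (69.6 to 77.4) in NP and 96.0 FPKM (91.1 to 101) in Control, with separate intervals. Whether the level of Mlxipl bears on that of Pklr was not tested.

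**Figure D2:**
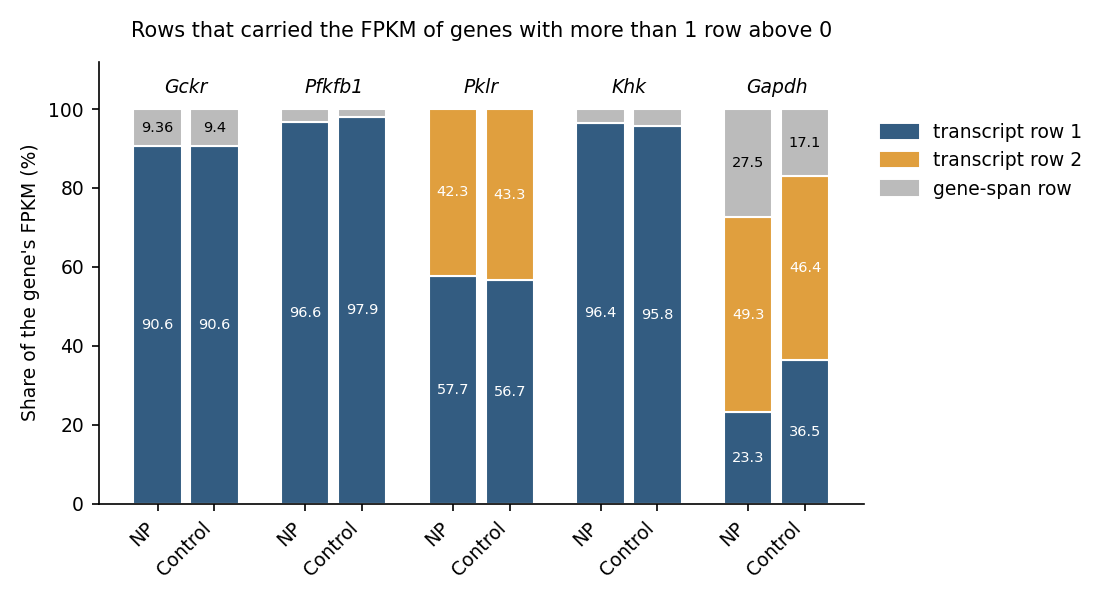
Share of a gene's FPKM held by each row above 0, in percent, for the 5 genes with more than 1 such row; NP bars stand left of Control bars, and grey marks the row that spans the whole gene. For Gapdh, transcript row 1 is the protein-coding row (23.3% in NP, 36.5% in Control) and row 2 the retained-intron row; for Pklr, row 1 is the upstream and row 2 the downstream start.

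Ldha encodes the lactate dehydrogenase subunit that turns pyruvate into lactate and back. Ldha was the member with the highest ratio and the most abundant one, at 883 FPKM (844 to 923) in NP and 689 FPKM (657 to 721) in Control, 1.28 times as high in NP. The intervals were separate, with NP above Control. Its log2 ratio of 0.36 lay above that of 91.3% of all genes compared, and 18.3% of genes lay at least as far from the overall median in either direction. The gene lies on chromosome 7 from 54096845 to 54110997 and no other gene of the tables overlaps it. All of its FPKM lay in the protein-coding row of 1588 nt, with a read coverage of 2608 in NP and 1609 in Control, and the other 9 rows were at 0.

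Processed pseudogenes of Ldha took few of the reads. With a copy defined as a pseudogene transcript of GENCODE M21 at least 90% identical over 500 nt or more, 7 copies were in the tables and 5 were above 0. They summed to 47.3 FPKM in NP and 48.3 FPKM in Control, so that Ldha itself held 94.9% of the sum in NP and 93.4% in Control. With the copies added, Ldha was at 931 FPKM in NP and 737 FPKM in Control, a ratio of 1.26. The heart subunit gene Ldhb was at 1.95 FPKM (1.12 to 2.77) in NP and 2.14 FPKM (1.08 to 3.38) in Control. Ldha made up 99.8% of the FPKM of both subunits in NP and 99.7% in Control.

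The upstream start of Ldha is shown for its E-boxes, letters to which the hypoxia and carbohydrate response factors and the USF proteins can bind. Its 250 bases, from RefSeq in GRCm38.p6 at chr7:46845554-46845803 on the plus strand, hold CACGTG at 145 and at 48 bases before the start, given in capitals.
Ldha, upstream start: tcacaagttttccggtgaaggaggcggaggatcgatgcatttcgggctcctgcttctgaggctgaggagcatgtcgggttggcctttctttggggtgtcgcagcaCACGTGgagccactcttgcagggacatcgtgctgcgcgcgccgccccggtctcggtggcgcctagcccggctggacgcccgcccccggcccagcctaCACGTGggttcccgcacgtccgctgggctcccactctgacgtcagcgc
Among the 13 starts of the 8 genes, 2 held CACGTG, this one and that of Khk, where it begins 71 bases before the start. Of all 32851 starts, 6.02% held it. The letters read the same on both strands.

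Gapdh encodes the dehydrogenase in the middle of glycolysis and is often used as a reference gene in expression work. The locus lies on chromosome 6 from 125111871 to 125116485. In these tables its level was only 21.2 FPKM (16.9 to 25.6) in NP and 25.2 FPKM (20.3 to 30.1) in Control. The intervals overlapped and the ratio was 0.843.

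Most FPKM with the sequence of Gapdh lay outside the Gapdh locus, in processed pseudogenes, which are intronless genomic copies of an mRNA. By the definition used for Ldha, 64 copies of Gapdh were in the tables and 44 were above 0. Their FPKM summed to 403 in NP and 406 in Control. Gapdh itself held 5.0% of the sum of gene and copies in NP and 5.84% in Control. The highest copy was Gm13394, at chromosome 2, bases 28788950 to 28790200, with 172 FPKM (161 to 183) in NP and 156 FPKM (145 to 167) in Control. Gm12033 was at 47.5 FPKM (43.4 to 51.6) in NP and 47.7 FPKM (43.4 to 52.0) in Control, and Gm12070 at 35.7 FPKM (31.0 to 40.5) in NP and 34.5 FPKM (29.6 to 39.4) in Control. Of the 44 copies above 0, 4 were higher and 40 lower in NP, and 18 were at 1 FPKM or more in NP and 23 in Control. Among the 10533 genes compared, which unlike the copies had to average at least 1 FPKM, 4808 were higher and 5725 lower. Since the copies share much of their sequence, they are not separate measurements. The values put 5 copies above the gene itself in both libraries.

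These copies are nearly the same as the mRNA of Gapdh, as the letters around their differences show. Over 1000 nt or more of the coding sequence of 1002 nt, from GENCODE M21 (GRCm38), each of the 3 highest copies differed from Gapdh at 1 position. Counted from the A of the start codon, the differences were A346C in Gm13394, T504C in Gm12033 and G361A in Gm12070, where the base of Gapdh comes first. Each window holds 41 bases with the differing base in capitals.
Gapdh, around the difference from Gm13394: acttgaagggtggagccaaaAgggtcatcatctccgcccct
Gm13394: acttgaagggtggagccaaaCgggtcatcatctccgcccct
Gapdh, around the difference from Gm12033: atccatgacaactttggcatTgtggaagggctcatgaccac
Gm12033: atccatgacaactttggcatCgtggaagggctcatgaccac
Gapdh, around the difference from Gm12070: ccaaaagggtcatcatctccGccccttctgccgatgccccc
Gm12070: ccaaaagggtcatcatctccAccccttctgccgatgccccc
A read that does not cover such a base has the same letters in the gene and in that copy. Levels of Gapdh and of each copy are therefore uncertain, and how the reads were shared among them is not given in the sources used here. CD-1 mice may also differ from the reference at these positions, which was not examined.

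The sum over gene and copies hardly differed between the libraries, at 424 FPKM in NP and 431 FPKM in Control, a ratio of 0.984. FPKM of separate rows were added here, so the sum is a description and carries no interval. Its log2 ratio of -0.02 was close to the median of all genes, whereas that of the Gapdh locus alone was -0.24.

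Rows of the Gapdh locus did not share a direction. The protein-coding row of 1272 nt was at 4.94 FPKM (3.33 to 6.55) in NP and 9.19 FPKM (6.95 to 11.4) in Control, with separate intervals and a ratio of 0.537. A row of 565 nt, annotated as a retained intron in GENCODE M21, was at 10.5 FPKM (6.49 to 14.4) in NP and 11.7 FPKM (7.37 to 15.99) in Control. The span row was at 5.83 FPKM (5.06 to 6.59) in NP and 4.30 FPKM (3.61 to 4.998) in Control, also with separate intervals but with NP above. It held 68.8% of the FPKM times length of the locus in NP and 52.1% in Control.

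**Figure D3:**
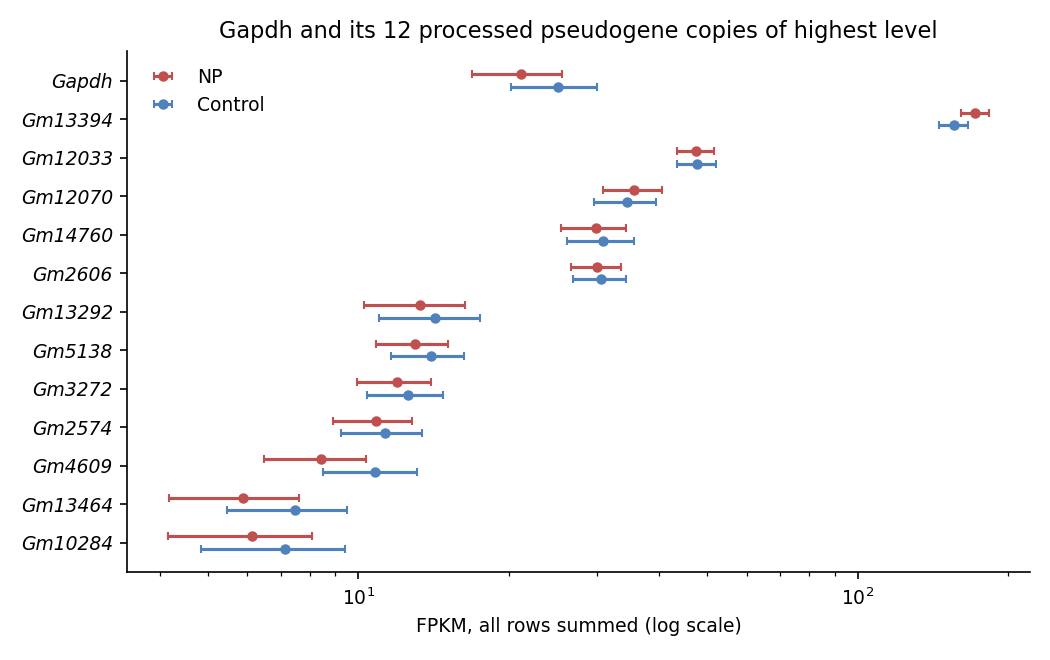
FPKM on a log axis of Gapdh and of its 12 most abundant processed pseudogene copies, with NP above Control; points are single libraries and bars the 95% interval within the library. Gm13394 stands highest, at 172 FPKM in NP and 156 FPKM in Control, while Gapdh itself is at 21.2 FPKM in NP and 25.2 FPKM in Control.

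In the lists that follow, counts at 1.5-fold, medians, and the highest and lowest ratios are those on the log2(FPKM + 1) scale. Of all genes compared, 3.6% were 1.5-fold higher and 5.33% were 1.5-fold lower on that scale. Among the other glycolysis enzymes, 0 of the 17 compared were 1.5-fold higher or lower in NP, and the median log2 ratio was -0.09. The other 7 of the 24 listed were below a mean of 1 FPKM and were not compared. Ldhd, which acts on D-lactate, had the highest ratio, at 71.9 FPKM (67.6 to 76.2) in NP and 58.4 FPKM (54.4 to 62.4) in Control. Pfkfb3 had the lowest. Copies also bear on some of these enzymes. Pgk1 itself held 21.4% of the FPKM of gene and copies in NP and 21.6% in Control, and Eno1 held 18.4% in NP and 23.2% in Control. Eno1 had a ratio of 0.826 alone and 1.04 with its copies.

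Around Khk, 11 of 12 genes of fructose, galactose and polyol handling lay within 1.5-fold, 1 was lower and the median was -0.04. Slc2a5, a fructose carrier, was the lower one, at 2.06 FPKM (1.55 to 2.56) in NP and 4.60 FPKM (3.02 to 6.17) in Control. Aldh1b1, an aldehyde dehydrogenase, had the highest ratio, at 12.01 FPKM (10.5 to 13.5) in NP and 7.80 FPKM (6.51 to 9.09) in Control. Of 5 hexose transporters compared besides Slc2a2, 1 was lower, again Slc2a5, and the median was -0.04. Slc2a9, a urate carrier, had the highest ratio, at 8.36 FPKM in NP and 7.05 FPKM in Control. Slc37a4, which carries glucose 6-phosphate into the ER, was the most abundant, at 77.1 FPKM in NP and 69.2 FPKM in Control with overlapping intervals.

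Downstream of Pklr and Ldha, 2 of 15 genes of pyruvate and lactate fate were 1.5-fold higher, 0 were lower and the median was -0.11. Slc16a7, a carrier of lactate and pyruvate, had the highest log2(FPKM + 1) ratio, at 26.9 FPKM (24.4 to 29.3) in NP and 15.7 FPKM (13.7 to 17.6) in Control. The other gene was Pdk4, which restrains pyruvate dehydrogenase, at 13.7 FPKM in NP and 7.92 FPKM in Control. Brp44, a subunit of the mitochondrial pyruvate carrier and the most abundant, was at 215 FPKM in NP and 253 FPKM in Control with separate intervals. Pdpr, a subunit of the pyruvate dehydrogenase phosphatase, had the lowest ratio, at 4.16 FPKM in NP and 6.07 FPKM in Control. In the pentose phosphate pathway 0 of 8 genes passed 1.5-fold (median 0.00), with H6pd, the ER enzyme, at 117 FPKM in NP and 142 FPKM in Control, and Pgls at 44.4 FPKM in NP and 35.3 FPKM in Control. Of 11 gluconeogenesis genes, 0 passed 1.5-fold and the median was 0.05. Fbp1, which opposes phosphofructokinase, had the highest ratio there, at 824 FPKM (787 to 862) in NP and 630 FPKM (601 to 659) in Control. Pck1, the most abundant, was at 1376 FPKM in NP and 1406 FPKM in Control, and Mdh1, with the lowest ratio, at 161 FPKM in NP and 167 FPKM in Control.

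Of 17 transcription factors that act on hepatic glycolytic genes, 0 were 1.5-fold higher and 2 were lower, and the median was 0.05. Srebf1, the insulin-responsive lipid and glycolysis regulator, was at 5.33 FPKM (4.63 to 6.03) in NP and 13.96 FPKM (12.5 to 15.4) in Control. Usf1, an E-box binding factor, was at 9.72 FPKM (7.996 to 11.4) in NP and 15.1 FPKM (11.7 to 18.6) in Control. These calls depended on the rows used. With transcript rows only, 1 of the factors compared was 1.5-fold lower, and with the highest transcript row only 0 were. Hnf4a, the most abundant, was at 248 FPKM in NP and 200.1 FPKM in Control, and Foxa2 had the highest ratio, at 12.7 FPKM in NP and 8.50 FPKM in Control. Beside Pklr, 13 other ChREBP-responsive genes had 2 higher, 1 lower and a median of 0.05. Klf10 was at 16.3 FPKM in NP and 8.89 FPKM in Control, Txnip at 81.2 FPKM in NP and 46.2 FPKM in Control, and Thrsp, a lipogenic gene, at 5.03 FPKM in NP and 8.25 FPKM in Control. Gpd1, the most abundant of them, was at 245 FPKM in NP and 209 FPKM in Control. Of 7 HIF1-responsive genes outside glycolysis, 1 was higher and 0 lower (median -0.08). That gene was P4ha1, a collagen hydroxylase, at 8.39 FPKM in NP and 4.57 FPKM in Control. Egln3, an oxygen sensor, had the lowest log2(FPKM + 1) ratio, at 3.74 FPKM in NP and 5.13 FPKM in Control, and Bnip3 was the most abundant, at 74.3 FPKM in NP and 73.7 FPKM in Control.

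**Figure D4:**
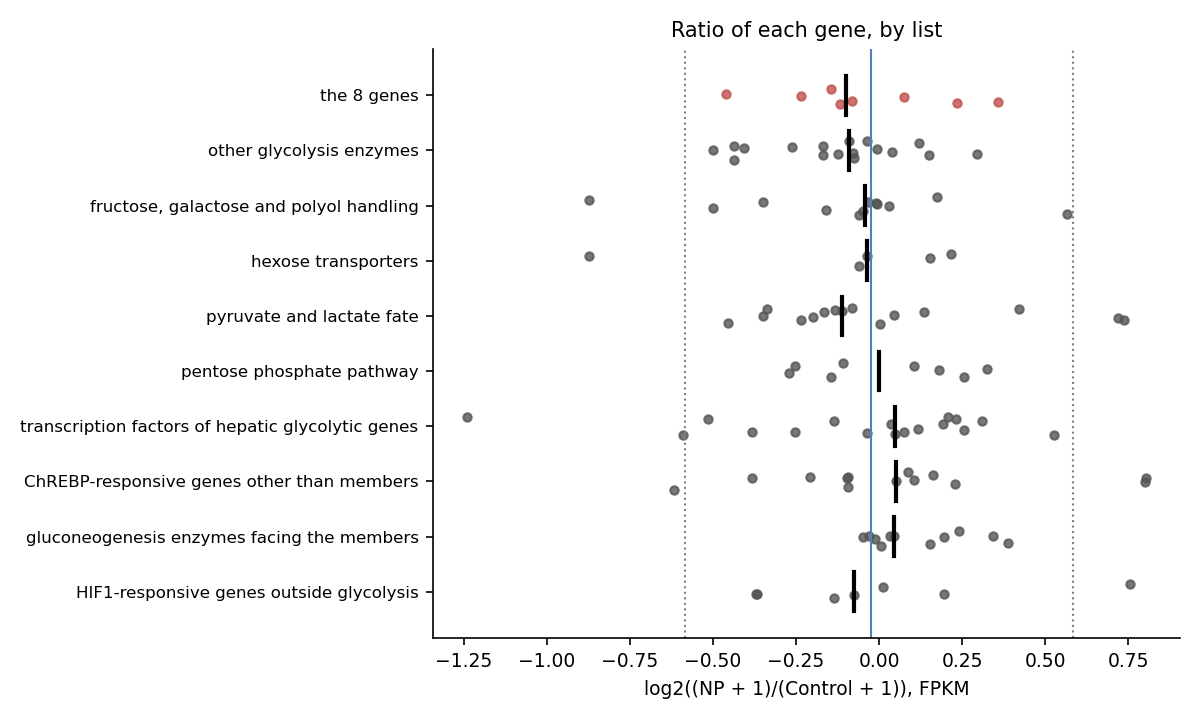
Log2 ratio of (NP + 1) to (Control + 1) in FPKM for each gene compared, by list; black bars are list medians, the blue line is the median of all 10533 genes (-0.03) and dotted lines mark 1.5-fold. All 8 genes of the set (red) lie between the dotted lines, with a median of -0.10.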

How the data were processed

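Liver RNA of 1 NP and 1 Control library was measured by RNA-seq from total RNA. Per the submitters' processing notes, the tools were TopHat2 2.1.0 and Cufflinks 2.2.1.0 and the build mm9; their roles and settings, strandedness and depth in fragments were not given in those notes or the labels. The authors deposited FPKM per row with a 95% interval, also in FPKM, and read coverage, a signal not scaled to library size, per the file headers. Each table holds 119289 rows, of which 31633 span whole genes. Row lengths (nt) are other deposited values.

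Rows were summed per gene identifier and half-widths combined in quadrature, with rows at 0 given no width. Genes compared averaged at least 1 FPKM over both libraries, had every row at status OK and a longest transcript of 300 nt or more, and were not named as small RNAs. Ratios were log2((NP + 1)/(Control + 1)), which understates differences of low genes, and the size rule was 1.5-fold. The size rule was checked on made values without noise, which is a check of its arithmetic and gives no error rate. Text values cover the 8 members, rows with at least 5% of a member's FPKM, span rows, and genes at the ends of each of 9 lists with its most abundant one. From the rule's 3 genes at each end mostly the outermost is given, the most abundant gene is left out for 2 lists, and Pdk4, Usf1 and Txnip are given because they passed 1.5-fold, and Mlxipl, Pgk1, Eno1 and the isozymes for their bearing on members. Members and lists were chosen with earlier results of these data known. Copies were found with blastn 2.17.0 against GENCODE M21 transcripts, matched by gene identifier, so copies without an identifier shared with the tables were not counted. Promoter windows were those of RefSeq (GRCm38.p6), and mm9 and GRCm38 coordinates were not converted. Python 3.11.15, pandas 2.3.3, numpy 2.4.6 and matplotlib 3.10.9 were used. Alternatives covered scaling, pseudocount, row choice, filter and fold.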

Additional observations from a re-analysis of the deposited data

How the results depend on the processing

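The ratio of each of the 8 genes kept its direction under all alternatives run for it (3 scalings of NP, pseudocount 0.1, plain FPKM, transcript rows only, highest transcript row only, and copies added, which was chosen after seeing the data), and all 64 such values moved by less than the interval of the ratio. Gapdh moved most, between -0.42 with transcript rows only and -0.02 with copies added. The median of the members lay between -0.12 and -0.08 without each member in turn. At a ratio of at least 5 to 4, 1 member was higher and 1 lower. With a minimum mean of 5 FPKM, 218 of all genes were 1.5-fold higher and 246 lower, since fewer genes were compared, against 379 and 561. Among the lists, median or upper quartile scaling gave 1 higher fructose gene and 1 lower transcription factor, and transcript rows only gave 1 lower transcription factor. With the highest transcript row only there was 1 higher glycolysis gene, 0 lower fructose genes, transporters and transcription factors, 2 lower ChREBP-responsive genes, 1 lower HIF1-responsive gene and a gluconeogenesis median of 0.16. Pseudocount 0.1 and plain FPKM each gave 2 lower glycolysis genes, and 1 higher and 2 lower fructose genes. At the minimum mean of 5 FPKM, 0 fructose genes and 0 transporters were lower. Some list medians also changed sign. The ChREBP-responsive median became -0.09 with the highest transcript row only. That of HIF1-responsive genes became 0.003 with that setting and 0.01 at the minimum mean of 5 FPKM. The transporter median became 0.06 at that minimum. The pentose phosphate median, which was near 0, turned positive under each of the 3 scalings of NP. The cause of these moves was not tested. No paired analysis was possible because each group has 1 library.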
